A study of Mus musculus with 8 samples.

Results

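Trp53, which encodes the transcription factor p53, and 9 genes that p53 is known to activate directly were followed through 4 groups of mouse kidney libraries. These 10 genes, of 55304 in the deposited count table, were matched by symbol: Trp53, Mdm2, Cdkn1a, Ccng1, Bbc3, Bax, Aen, Trp53inp1, Phlda3 and Gdf15. They were chosen with earlier results of these data known. RNA came from kidney cells positive for the Dolichos biflorus lectin, DBA, which labels mainly collecting duct epithelium, although the extraction protocol also speaks of whole kidney. Each of the 4 groups had 2 libraries: ADPKD mice given 666-15 and ADPKD mice given DMSO vehicle, and WT mice given 666-15 and WT mice given DMSO vehicle. ADPKD stands for autosomal dominant polycystic kidney disease, in which collecting ducts and other tubules turn into cysts, and WT for wild type. The labels do not give the altered gene, the driver of any Cre or the strain. The compound 666-15 inhibits the transcription factor CREB. It was dosed at 5 mg/kg once a day on a cycle of 5 dosing days and 2 rest days, which began at postnatal day 11 and ran for 3 weeks.

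Library totals lay between 15108793 and 19702638 counts, and all 10 genes passed the filter on low counts, which left 17440 genes to test. In WT mice given 666-15 the libraries came from 2 mice, since they differed in sex: replicate 2 held 17688 counts of Xist, the RNA that silences an X chromosome in females, against at most 8 in each of the other 7 libraries. For the other 3 groups it is not stated whether the libraries are separate mice, and p-values can there reflect technical spread only. All 7 principal cell markers were detected; they took 0.178% and 0.211% of counts in ADPKD cells given 666-15, 0.180% and 0.147% in ADPKD cells given vehicle, 0.585% and 0.589% in WT cells given 666-15, and 0.104% and 0.141% in WT cells given vehicle. Proximal tubule markers took 0.0340% and 0.0353% of counts in ADPKD cells given 666-15, 0.00411% and 0.00563% in ADPKD cells given vehicle, 0.519% and 0.438% in WT cells given 666-15, and 1.33% and 1.08% in WT cells given vehicle. The 8 macrophage markers took 0.0238% and 0.0291% in ADPKD cells given vehicle, against 0.0105% and 0.00773% in WT cells given vehicle. Gene by gene, 7 of these 8 were called higher and 1 lower there, with a median log2 fold change of 3.79. Endothelial markers took 0.0314% and 0.0235% in ADPKD cells given 666-15, against 0.0896% and 0.110% in ADPKD cells given vehicle. Thick ascending limb markers took 0.0322% and 0.0328% in ADPKD cells given vehicle, against 0.682% and 0.673% in WT cells given vehicle. Between these 2 vehicle groups, 4 of 6 stroma markers were called higher in ADPKD cells and 0 lower. All 5 podocyte markers were called lower. In bulk libraries, fewer cells of a type and less RNA per cell cannot be told apart, and the part of these markers in the results on the p53 genes was not tested.

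As background, p53 is held at a low protein level by MDM2, a ubiquitin ligase that marks it for breakdown and whose gene p53 itself switches on, which closes a negative feedback loop. DNA damage, ribosome stress, oncogene activity and other stresses free p53, mainly by stabilising the protein, so its activity can change with little change in Trp53 RNA. Active p53 binds DNA as a tetramer at a pair of half-sites and switches on genes that halt the cell cycle (Cdkn1a, Ccng1), promote apoptosis (Bbc3, Bax, Aen, Trp53inp1, Phlda3) or encode secreted factors (Gdf15). In polycystic kidney disease, proliferation and apoptosis of tubule cells are both known to be raised.

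Start sequences are shown first for the 3 genes whose start regions held a pair of p53 half-sites by letter match. RefSeq windows on GRCm38.p6, from 250 bases before to 50 bases after a gene's start, were found for 9 of the 10 genes, 14 windows in all, and were searched for the p53 half-site consensus, a motif of 10 letters that reads alike on both strands. An exact half-site stood in 7 of the 14 windows, which belonged to 6 genes (Trp53, Mdm2, Cdkn1a, Bax, Ccng1 and Aen), against 8.36% of all 32851 windows. The Aen windows overlap and share 1 site, at chr7:78895937-78895946, which is counted in both. No exact half-site stood in the windows of Bbc3, Phlda3 or Gdf15. Pairs of half-sites were searched with at most 13 bases between them and at most 2 of 20 letters off. Such a pair stood in the Cdkn1a window at chr17:29090729-29091028 with 0 letters off and 12 bases between its half-sites. A match with 0 letters off was held by 0.0731% of all windows. The other Cdkn1a window, at chr17:29093519-29093818, held 0 exact half-sites, and its best pair had 5 letters off. Ccng1 had 1 letter off and 0 bases between the half-sites, and 0.627% of all windows hold a pair with at most 1 letter off. Bax had 2 letters off and 1 base between the half-sites, and 4.09% of all windows hold a pair with at most 2 letters off. A match describes the letters only, and sites further from the start, where p53 is known to bind many of its targets, were not searched. Only the pair with the fewest letters off was kept for each window. In Cdkn1a the 10 letters right after GAACATGTCT have 1 letter off. With GAACATGTCT they form a further pair within the limits, with 0 bases between, which is not in capitals. The 250 bases before the start are given 5′ to 3′ on the gene's strand, with the kept pair in capitals. They are given for Cdkn1a at chr17:29090729-29090978 (plus strand), Bax at chr7:45466899-45467148 (minus strand) and Ccng1 at chr11:40755287-40755536 (minus strand).
Cdkn1a: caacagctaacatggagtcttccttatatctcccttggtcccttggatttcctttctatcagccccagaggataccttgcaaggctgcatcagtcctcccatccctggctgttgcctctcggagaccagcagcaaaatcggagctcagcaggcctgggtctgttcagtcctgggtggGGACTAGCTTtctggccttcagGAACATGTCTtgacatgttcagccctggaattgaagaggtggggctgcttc
Bax: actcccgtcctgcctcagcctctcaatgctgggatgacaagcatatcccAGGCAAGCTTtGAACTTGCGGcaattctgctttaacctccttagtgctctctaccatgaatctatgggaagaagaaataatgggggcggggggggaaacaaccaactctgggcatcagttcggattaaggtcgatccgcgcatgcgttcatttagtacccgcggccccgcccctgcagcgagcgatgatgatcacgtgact
Ccng1: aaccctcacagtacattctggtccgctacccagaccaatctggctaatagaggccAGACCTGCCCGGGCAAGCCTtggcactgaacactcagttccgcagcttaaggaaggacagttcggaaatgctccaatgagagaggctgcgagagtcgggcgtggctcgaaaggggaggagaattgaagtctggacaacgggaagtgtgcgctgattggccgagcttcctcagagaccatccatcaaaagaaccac
The 3 genes with such a pair did not behave alike: Cdkn1a and Bax changed with genotype and with 666-15, while Ccng1, whose pair stands nearer to the consensus than that of Bax, passed neither test.

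Of the 10 genes, 9 were higher in ADPKD cells than in WT cells when both had vehicle and none was lower. In that comparison 56.4% of all genes tested passed at an adjusted p below 0.05 in edgeR's quasi-likelihood test, 28.8% as higher and 27.6% as lower. The median log2 fold change of the 10 genes was 1.39, against 0.05 over all genes tested. With 666-15, 7 of the 10 were lower in ADPKD cells than with vehicle and none was higher, where 19.1% of all genes were lower and 22.3% higher, 41.4% in all. The median of the 10 genes was -0.69, against 0.02 over all genes. In WT cells, 666-15 left 3 of the 10 higher and 2 lower, where 13.9% of all genes were higher and 11.6% lower, 25.5% in all. The response in ADPKD cells was lower than the response in WT cells for 6 of the 10 genes and higher for none, by the test of that difference, which passed as lower for 13% and as higher for 13.6% of all genes, 26.6% in all. The comparisons share libraries, and the 9, 7, 5 and 6 calls are therefore not independent of each other. Since the genes were chosen with earlier results known, these counts beside the shares of all genes are a description and not a test.

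**Figure D1:**
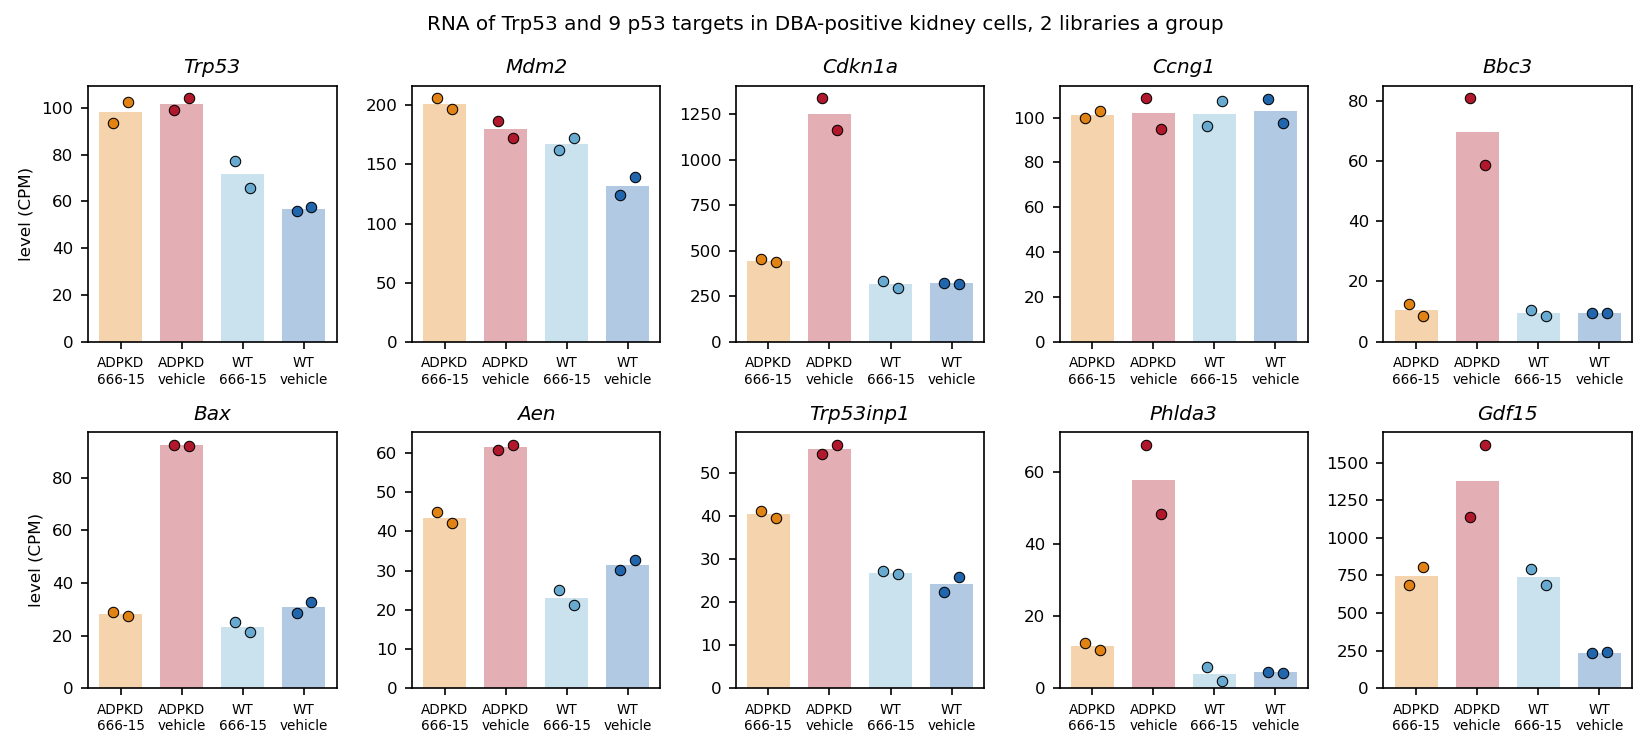
Levels of the 10 genes in CPM (counts scaled by library size, linear axes from 0) in ADPKD cells given 666-15, ADPKD cells given vehicle, WT cells given 666-15 and WT cells given vehicle. Each point is 1 library and each bar the mean of 2; Bbc3, Bax, Cdkn1a and Phlda3 stand highest in ADPKD cells given vehicle, Gdf15 is also raised in WT cells given 666-15, and Ccng1 is level over the 4 groups.

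Trp53 itself (chromosome 11, 69580359 to 69591873, plus strand) differed with genotype and did not pass the test of 666-15 in ADPKD cells. Its level, in CPM (counts scaled by library size), was 93.5 and 102.4 in ADPKD cells given 666-15, 99.1 and 104.1 in ADPKD cells given vehicle, 77.3 and 65.8 in WT cells given 666-15 and 55.9 and 57.6 in WT cells given vehicle. All 4 ADPKD libraries stood above all 4 WT libraries. With vehicle, Trp53 RNA was 1.79-fold higher in ADPKD than in WT cells (log2 fold change 0.84 ± 0.11 SE, edgeR adjusted p = 2.6e-05). In ADPKD cells the 666-15 and vehicle libraries overlapped, with a log2 fold change of -0.05 ± 0.11 and a 95% interval of -0.29 to 0.18 (edgeR adjusted p = 0.733). Trp53-ps, a pseudogene that could share its reads, held at most 38 counts in any library.

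Mdm2 (chromosome 10, 117688875 to 117710758, minus strand), the ubiquitin ligase gene of the feedback loop, moved little. It stood at 206.0 and 196.7 CPM in ADPKD cells given 666-15, 186.7 and 172.5 CPM in ADPKD cells given vehicle, 162.2 and 172.3 CPM in WT cells given 666-15 and 124.5 and 139.3 CPM in WT cells given vehicle. The WT vehicle libraries were the lowest of the 8 and the ADPKD 666-15 libraries the highest. With vehicle the rise in ADPKD over WT cells was 0.45 ± 0.10 on the log2 scale (edgeR adjusted p = 0.00167). Within ADPKD cells the 666-15 libraries lay above both vehicle libraries, but the log2 difference of 0.16 ± 0.10 did not pass (95% interval -0.05 to 0.38, edgeR adjusted p = 0.194). Mdm2 was thus the one gene among the 9 raised in ADPKD cells, other than Trp53, that did not pass as lower with 666-15.

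Cdkn1a (chromosome 17, 29090976 to 29100727, plus strand) encodes p21, the inhibitor of cyclin-dependent kinases through which p53 halts the cell cycle. It stood at 454.5 and 436.8 CPM in ADPKD cells given 666-15, 1338 and 1165 CPM in ADPKD cells given vehicle, 336.1 and 295.1 CPM in WT cells given 666-15 and 325.8 and 315.2 CPM in WT cells given vehicle. The ADPKD vehicle libraries stood above the other 6, which lay between 295.1 and 454.5 CPM. Cdkn1a was 3.90-fold higher in ADPKD than in WT cells with vehicle (log2 1.97 ± 0.10, edgeR adjusted p = 6.53e-09) and 2.81-fold lower with 666-15 than with vehicle in ADPKD cells (log2 -1.49 ± 0.10, edgeR adjusted p = 9.7e-07). In WT cells its 666-15 response was -0.02 ± 0.10 (95% interval -0.24 to 0.20). The 2 responses differed by -1.47 ± 0.14 on the log2 scale (edgeR adjusted p = 2.21e-05). The gene shares 273 exon bases (7.68% of its own) with an unnamed transcript on the opposite strand, AC167363.2, and the strand setting of the counting is not given in the sources used here.

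Ccng1 (chromosome 11, 40748552 to 40755311, minus strand), the gene of cyclin G1, an arrest-linked target that also acts on MDM2, was the exception among the 10. Its level was 99.6 and 102.9 CPM in ADPKD cells given 666-15, 108.7 and 95.1 CPM in ADPKD cells given vehicle, 96.2 and 107.4 CPM in WT cells given 666-15 and 108.1 and 97.6 CPM in WT cells given vehicle. All 4 groups overlapped. The genotype difference with vehicle was -0.01 ± 0.11 on the log2 scale, with a 95% interval of -0.25 to 0.22, so a change of the size seen for Trp53 lies outside the interval.

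Among the genes tied to apoptosis, Bbc3 (chromosome 7, 16308393 to 16318205, plus strand) was high in ADPKD cells given vehicle alone. It encodes PUMA, a BH3-only protein that blocks the survival proteins of the BCL-2 family. It stood at 12.4 and 8.55 CPM in ADPKD cells given 666-15, 80.8 and 58.6 CPM in ADPKD cells given vehicle, 10.4 and 8.48 CPM in WT cells given 666-15 and 9.51 and 9.63 CPM in WT cells given vehicle. Outside the ADPKD vehicle libraries, all 6 libraries lay close together. Bbc3 was 7.28-fold higher in ADPKD than in WT cells with vehicle (log2 2.86 ± 0.21, edgeR adjusted p = 1.73e-07) and 6.63-fold lower with 666-15 than with vehicle in ADPKD cells (log2 -2.73 ± 0.21, edgeR adjusted p = 2.62e-06). Its response in WT cells was -0.02 ± 0.22, and the responses differed by -2.71 ± 0.30 (edgeR adjusted p = 6.01e-05).

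Bax (chromosome 7, 45461697 to 45466898, minus strand), which encodes the pore-forming protein that opens the outer mitochondrial membrane, followed the same shape. Its level was 29.0 and 27.6 CPM in ADPKD cells given 666-15, 92.5 and 92.1 CPM in ADPKD cells given vehicle, 25.0 and 21.4 CPM in WT cells given 666-15 and 28.6 and 32.9 CPM in WT cells given vehicle. With vehicle it was 3.01-fold higher in ADPKD than in WT cells (log2 1.59 ± 0.13, edgeR adjusted p = 2.87e-07), and in ADPKD cells it was 3.26-fold lower with 666-15 than with vehicle (log2 -1.71 ± 0.13, edgeR adjusted p = 1.73e-06). The 2 responses differed by -1.30 ± 0.18 (edgeR adjusted p = 2.59e-04). Bax shares 192 exon bases (12.2% of its own) with Gm45808 on the same strand, which had 0 counts in every library.

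Aen and Trp53inp1 moved the same way by smaller amounts. Aen (chromosome 7, 78895854 to 78911209, plus strand), which encodes a nuclease that promotes apoptosis, stood at 45.0 and 42.0 CPM in ADPKD cells given 666-15, 60.8 and 62.1 CPM in ADPKD cells given vehicle, 25.0 and 21.1 CPM in WT cells given 666-15 and 30.3 and 32.7 CPM in WT cells given vehicle. It was higher by 0.96 ± 0.13 in ADPKD over WT cells with vehicle (edgeR adjusted p = 2.55e-05) and lower by 666-15 in both genotypes, at -0.50 ± 0.12 in ADPKD cells (edgeR adjusted p = 0.00654) and -0.45 ± 0.13 in WT cells (edgeR adjusted p = 0.0222). The difference between these responses was -0.05 ± 0.18 (95% interval -0.44 to 0.34). Without ADPKD 666-15 replicate 2 the call in ADPKD cells was lost (-0.44, edgeR adjusted p = 0.0744). Trp53inp1 (chromosome 4, 11156431 to 11174379, plus strand), which encodes a nuclear protein that promotes p53 phosphorylation, stood at 41.3 and 39.6 CPM in ADPKD cells given 666-15, 54.5 and 56.6 CPM in ADPKD cells given vehicle, 27.2 and 26.5 CPM in WT cells given 666-15 and 22.5 and 25.9 CPM in WT cells given vehicle. For both genes the ADPKD vehicle libraries were the highest, followed by the ADPKD 666-15 libraries and then all WT libraries. Trp53inp1 was higher by 1.20 ± 0.12 in ADPKD over WT cells with vehicle (edgeR adjusted p = 3.29e-06) and lower by 666-15 in ADPKD cells (-0.46 ± 0.12, edgeR adjusted p = 0.00974). This last call was lost without ADPKD 666-15 replicate 1 (-0.47, edgeR adjusted p = 0.0563), ADPKD 666-15 replicate 2 (-0.42, edgeR adjusted p = 0.0852) or ADPKD vehicle replicate 2 (-0.41, edgeR adjusted p = 0.0526).

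Phlda3 (chromosome 1, 135766119 to 135769136, plus strand) encodes a small PH-domain protein that keeps the survival kinase AKT off the membrane. It stood at 12.6 and 10.7 CPM in ADPKD cells given 666-15, 67.4 and 48.2 CPM in ADPKD cells given vehicle, 5.83 and 1.96 CPM in WT cells given 666-15 and 4.53 and 4.31 CPM in WT cells given vehicle. The 4 ADPKD libraries stood above the 4 WT libraries, where its counts were low, with 31 in WT 666-15 replicate 2. That replicate was the library with high Xist counts, and the part of sex was not tested. With vehicle Phlda3 was 13-fold higher in ADPKD than in WT cells (log2 3.70 ± 0.39, edgeR adjusted p = 6.91e-05), and in ADPKD cells it was 4.95-fold lower with 666-15 than with vehicle (log2 -2.31 ± 0.36, edgeR adjusted p = 0.00137). Its response in WT cells, -0.19 ± 0.43, turned on 1 library: it was -1.17 (edgeR adjusted p = 0.0161) without WT 666-15 replicate 1 and 0.39 (edgeR adjusted p = 0.342) without WT 666-15 replicate 2. The responses in ADPKD and WT cells differed by -2.11 ± 0.56 (edgeR adjusted p = 0.0264), a call lost in 6 of the 8 fits that left out 1 library (-2.22 to -1.12) and kept without ADPKD vehicle replicate 2 or WT 666-15 replicate 2.

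Gdf15 (chromosome 8, 70629393 to 70632456, minus strand), which encodes a secreted stress factor of the TGF-β family and responds to ATF4 and CHOP as well as to p53, was the one gene of the 10 that 666-15 moved in opposite directions in the 2 genotypes. It stood at 686.2 and 805.6 CPM in ADPKD cells given 666-15, 1137 and 1619.5 CPM in ADPKD cells given vehicle, 791.9 and 685.0 CPM in WT cells given 666-15 and 232.1 and 238.5 CPM in WT cells given vehicle. The 666-15 libraries of both genotypes overlapped, between the higher ADPKD vehicle libraries and the lower WT vehicle libraries. With vehicle Gdf15 was 5.86-fold higher in ADPKD than in WT cells (log2 2.55 ± 0.16, edgeR adjusted p = 2.02e-07). With 666-15 it was 1.85-fold lower in ADPKD cells (log2 -0.89 ± 0.15, edgeR adjusted p = 0.00103) and 3.14-fold higher in WT cells (log2 1.65 ± 0.16, edgeR adjusted p = 2.87e-05). The responses differed by -2.54 ± 0.22 (edgeR adjusted p = 2.65e-05). With a trend on GC content removed, the fall in ADPKD cells was -0.24 (edgeR adjusted p = 0.279) and the difference of responses -1.87 (edgeR adjusted p = 5.14e-04).

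The other calls in WT cells were small. Trp53 was higher with 666-15 by 0.33 ± 0.11 (edgeR adjusted p = 0.0412) and Mdm2 by 0.34 ± 0.10 (edgeR adjusted p = 0.0208), while Bax was lower at -0.40 ± 0.13 (edgeR adjusted p = 0.0363). These and the call of Aen did not hold when single libraries were left out. Trp53 lost its call in 7 of 8 such fits (0.21 to 0.35) and kept it without WT 666-15 replicate 2. Mdm2 lost it without WT 666-15 replicate 2 (0.29) or WT vehicle replicate 1 (0.26). Bax lost it without either ADPKD 666-15 replicate (-0.41 each), WT 666-15 replicate 2 (-0.30), WT vehicle replicate 1 (-0.51) or WT vehicle replicate 2 (-0.31). Aen lost it without WT 666-15 replicate 2 (-0.33), WT vehicle replicate 1 (-0.51) or WT vehicle replicate 2 (-0.40). Gdf15 kept its call in all 8. In the same comparison all 6 principal cell markers tested were higher (median log2 fold change 2.38), 6 of 8 macrophage markers were higher (median 2.24) and 5 of 7 proximal tubule markers were lower (median -1.38). Macrophage markers took 0.0116% and 0.0118% of counts in WT cells given 666-15, against 0.0105% and 0.00773% in WT cells given vehicle. The part of these cell types in the responses of Gdf15 and the other genes was not tested. Nor was the part of sex, in which WT 666-15 replicate 2 differed from replicate 1.

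**Figure D2:**
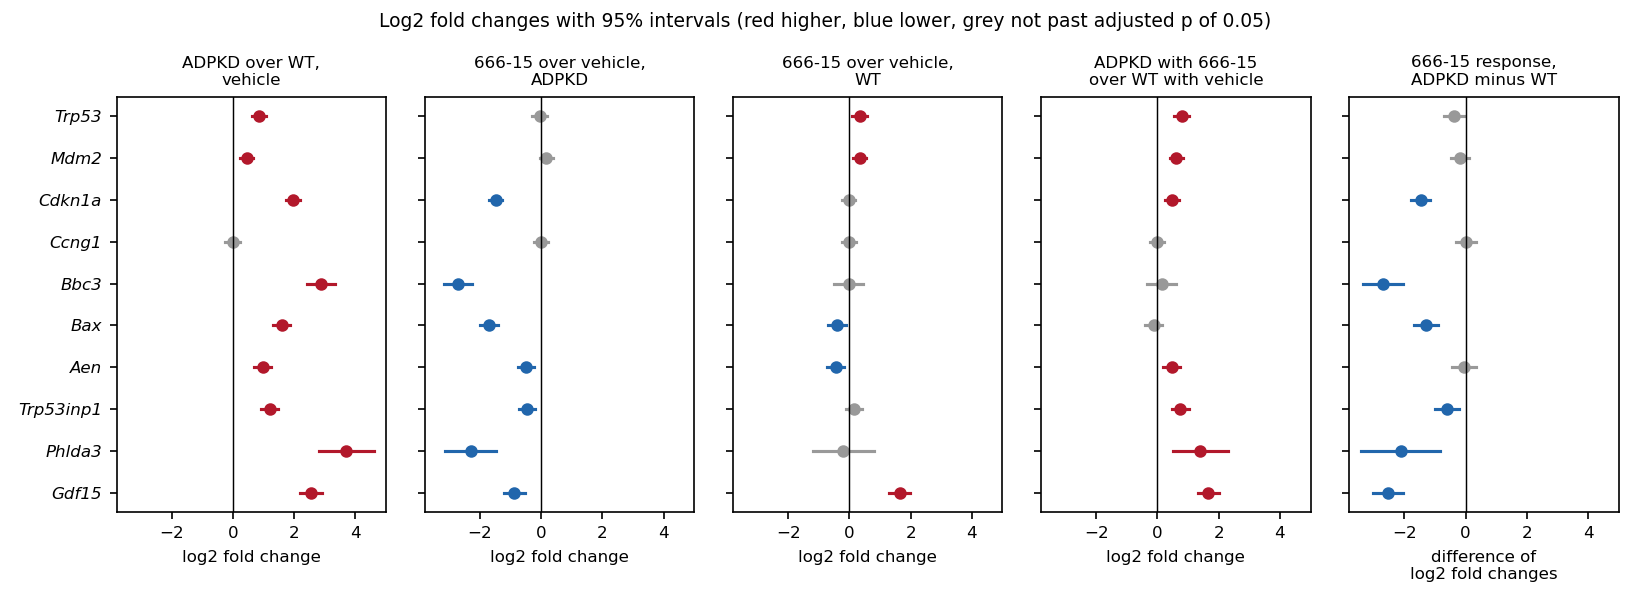
Log2 fold changes of the 10 genes (points) with 95% intervals (lines) in the 5 comparisons that the panel titles name, red where higher, blue where lower and grey where not called. With vehicle, 9 of 10 are higher in ADPKD cells; with 666-15, 7 of 10 are lower in ADPKD cells, while in WT cells the largest change is the rise of Gdf15.

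How far 666-15 brought the levels in ADPKD cells towards those of WT cells given vehicle differed between the genes. Against WT cells given vehicle, 7 of the 10 genes remained higher in ADPKD cells given 666-15 and none was lower, where 28.6% of all genes tested were higher and 26.7% lower, 55.3% in all. Bbc3 (log2 0.13 ± 0.22, 95% interval -0.33 to 0.60) and Bax (log2 -0.12 ± 0.13, 95% interval -0.40 to 0.16) did not pass, and neither did Ccng1. Those still higher were Gdf15 (1.66 ± 0.16), Phlda3 (1.40 ± 0.39), Trp53 (0.79 ± 0.11), Trp53inp1 (0.74 ± 0.13), Mdm2 (0.61 ± 0.10), Cdkn1a (0.48 ± 0.10) and Aen (0.47 ± 0.13), with edgeR adjusted p between 5.42e-06 and 0.0163. The call of Phlda3 was lost without ADPKD 666-15 replicate 1 (1.28) or 2 (1.51) and without WT vehicle replicate 1 (1.43) or 2 (1.36). That of Aen was lost without ADPKD 666-15 replicate 1 (0.42) or WT vehicle replicate 1 (0.40). With the GC trend removed Bbc3 passed as higher (0.58) and Ccng1 as lower (-0.32).

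With 666-15 in both genotypes, 6 of the 10 genes were higher in ADPKD than in WT cells and none was lower, where 21.8% of all genes were higher and 24.5% lower, 46.3% in all. Phlda3 (1.59 ± 0.41), Aen (0.91 ± 0.13), Trp53inp1 (0.59 ± 0.13), Cdkn1a (0.50 ± 0.10), Trp53 (0.45 ± 0.11) and Mdm2 (0.27 ± 0.10) passed, with edgeR adjusted p between 8.78e-05 and 0.0384. The calls of Cdkn1a and Aen held under every alternative tried. Phlda3 lost its call without ADPKD 666-15 replicate 1 (1.47), Trp53 without ADPKD 666-15 replicate 2 (0.38), Trp53inp1 with the GC trend removed (0.25), and Mdm2 without any 1 of the ADPKD 666-15 or WT vehicle replicates or WT 666-15 replicate 1 (0.22 to 0.30). Mdm2 was also lost without a filter on low counts (0.26), with the GC trend removed (0.23), in the 2 groups alone (0.27) and with DESeq2 (0.28), so that its call held in 8 of 17 alternatives. Gdf15 stood at 0.01 ± 0.15, and Bax at 0.29 ± 0.13 passed with the GC trend removed (0.68), with the length trend removed (0.53) or without WT 666-15 replicate 1 (0.40). Bbc3, at 0.15 ± 0.22, passed with the GC trend removed (0.57, edgeR adjusted p = 0.0246).

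Transcript composition moved with the 666-15 response in ADPKD cells. Over 17252 genes with an annotated transcript, the log2 fold change had a Spearman correlation of -0.35 with GC content, a description across genes of the same libraries, and 0.02 in WT cells. The 4 genes with the richest transcripts lay in the top GC percentiles of the genes tested: Bbc3 at 65.2% GC, Bax at 63.5%, Phlda3 at 62.6% and Gdf15 at 61.3%. Trp53inp1 at 38.8% and Ccng1 at 40.8% lay near the other end. With the trend removed in each library, the 666-15 response in ADPKD cells was -1.75 for Bbc3, -0.87 for Bax, -1.55 for Phlda3, -1.26 for Cdkn1a, -0.39 for Aen and -0.86 for Trp53inp1, each still past the threshold (edgeR adjusted p of 0.0193 at most, that of Aen). Ccng1 then passed as lower at -0.37 (edgeR adjusted p = 0.012), Trp53 stood at 0.13 and Mdm2 at -0.0038. The difference of responses of Phlda3 then missed the threshold (-1.32, edgeR adjusted p = 0.0575) and that of Bax was -0.48 (edgeR adjusted p = 0.0486). The genotype differences with vehicle, which had a correlation with GC content of 0.09, kept all 9 calls.

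**Figure D3:**
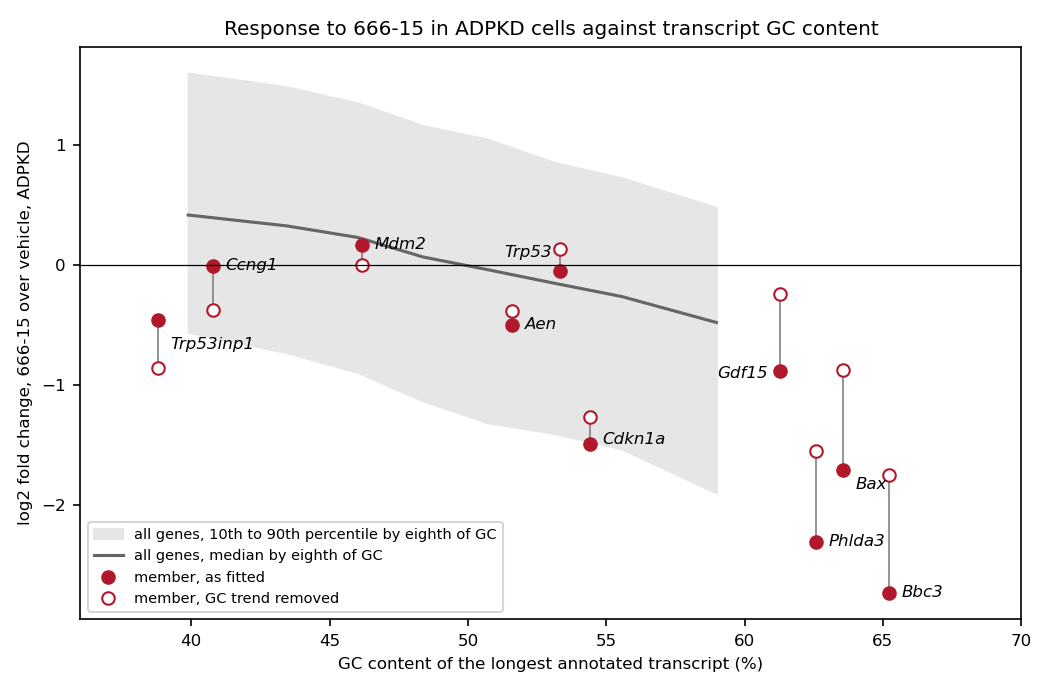
Log2 fold change with 666-15 over vehicle in ADPKD cells against the percent of G and C in each gene's longest transcript, for the 10 genes as fitted (filled) and with the GC trend removed (open). The grey line and band are the median and the 10th to 90th percentile of all genes by eighth of GC content; the median was 0.41 in the eighth with least GC and -0.48 in the eighth with most, and Bbc3, Bax and Phlda3 stay below 0 after removal.

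Between genes, levels were compared per transcript length, in TPM (counts scaled by transcript length and library). In ADPKD cells given vehicle the order was Gdf15 (2309 ± 590 TPM), Cdkn1a (1555 ± 140), Bax (217 ± 1.08), Mdm2 (148 ± 7.0), Phlda3 (104 ± 23.7), Bbc3 (99.2 ± 21.6), Trp53 (80.2 ± 3.44), Ccng1 (75.0 ± 6.48), Aen (32.1 ± 0.74) and Trp53inp1 (26.4 ± 0.92; SD, n = 2 each). The neighbours Phlda3 and Bbc3, and Trp53 and Ccng1, lay within their spread. In WT cells given vehicle the order began with Cdkn1a (430.3 ± 6.94 TPM) and Gdf15 (425 ± 11.2), which lay within their spread, and ended with Trp53inp1 (12.4 ± 1.35) and Phlda3 (8.61 ± 0.24). Mdm2, at 117 ± 10.1 TPM, stood above Bax in WT cells given vehicle, while in ADPKD cells given vehicle Bax stood above it.

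Beyond the 10 genes, the wider p53 programme was mixed in ADPKD cells. Of 47 other known p53 targets, all tested, 23 were higher, 8 lower and 16 not called in ADPKD over WT cells with vehicle, with a median log2 fold change of 0.34; over all genes tested 28.8% were higher and 27.6% lower, shares that several of the smaller groups lie near. Arrest genes were higher in 7 of 11 cases and lower in 1. Sfn, the gene of 14-3-3 sigma, which keeps the mitotic kinase CDK1 out of the nucleus, stood at 2837 and 2353 CPM in ADPKD cells given vehicle, against 246.5 and 280.7 CPM in WT cells given vehicle (log2 3.30 ± 0.13, edgeR adjusted p = 3.9e-10). Sesn2, a stress gene that restrains mTORC1, was higher by 0.999 ± 0.0975, Zmat3, which encodes an RNA-binding protein, by 1.40 ± 0.17 and Psrc1 by 2.89 ± 0.36. The fold of Psrc1 rests on low counts, 159 and 108 in ADPKD cells given vehicle and 18 and 17 in WT cells given vehicle. Apoptosis genes were higher in 6 of 12 cases and lower in 1: the BH3-only genes Bid (1.48 ± 0.14) and Pmaip1 (1.65 ± 0.15) and the death receptor gene Tnfrsf10b (1.54 ± 0.16) were higher. Fas, also a death receptor gene, was lower (-2.57 ± 0.28), at 4.46 and 9.01 CPM in ADPKD cells given vehicle, against 40.4 and 39.3 CPM in WT cells given vehicle.

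The 4 secreted targets were all higher, among them the cytokine gene Lif (3.19 ± 0.18) and Thbs1, the thrombospondin-1 gene (1.51 ± 0.12). A further one, Igfbp3 (1.96 ± 0.48), lost its call without ADPKD vehicle replicate 2 or either WT vehicle replicate, and without a filter on low counts. Feedback genes were higher in 2 of 3 cases, with Ppm1d, the phosphatase gene that shuts off p53 signalling, at 1.43 ± 0.15, and the ligase gene Cop1 at 0.56 ± 0.11. Rchy1, a further ligase gene, was lower at -0.32, a call lost without ADPKD vehicle replicate 1 or WT vehicle replicate 1, and with the GC or length trend removed. The metabolism genes were split, with 4 of 9 lower, 2 higher and 3 not called. Their median log2 fold change was 0.09, and 5 of the 9 lay above 0. The proline catabolism gene Aldh4a1 (-3.84 ± 0.12), the coenzyme A synthesis gene Pank1 (-3.60 ± 0.19), Lpin1 (-2.47 ± 0.34) and Fdxr (-1.74 ± 0.36) were lower. All 7 proximal tubule markers were lower in the same comparison, with a median log2 fold change of -7.13, and their part in the metabolism genes was not tested. DNA repair genes were mostly not called, with 2 of 8 higher and 1 lower, and Pcna, the DNA clamp gene, was higher by 0.68 ± 0.09.

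With 666-15 in ADPKD cells, 15 of the 47 other targets were lower, 8 higher and 24 not called (median -0.24), beside 19.1% of all genes lower and 22.3% higher. Without ADPKD 666-15 replicate 1 the calls numbered 14 and without replicate 2 they numbered 13. Arrest genes were lower in 6 of 11 cases, among them Sfn (-0.86 ± 0.12), at 1405 and 1460 CPM with 666-15, against 2837 and 2353 CPM with vehicle, Gadd45a (-0.92 ± 0.09) and Btg2 (-0.88 ± 0.12). Of the apoptosis genes 4 of 12 were lower and 1 higher, and none of these 5 calls held under every alternative. Pmaip1 (0.26 ± 0.15) and Tnfrsf10b (-0.20 ± 0.15) did not pass. Of the 4 secreted genes 2 were lower and 1 higher with 666-15 in ADPKD cells. The one that was higher was Lif, at 0.74 ± 0.17, a call lost without ADPKD 666-15 replicate 2. In WT cells, 10 of the 47 were higher with 666-15 and 5 lower (median 0.04), beside 13.9% of all genes higher and 11.6% lower, and 9 were called in all without WT vehicle replicate 1. Lif was the furthest from 0 of these at 2.83.

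**Figure D4:**
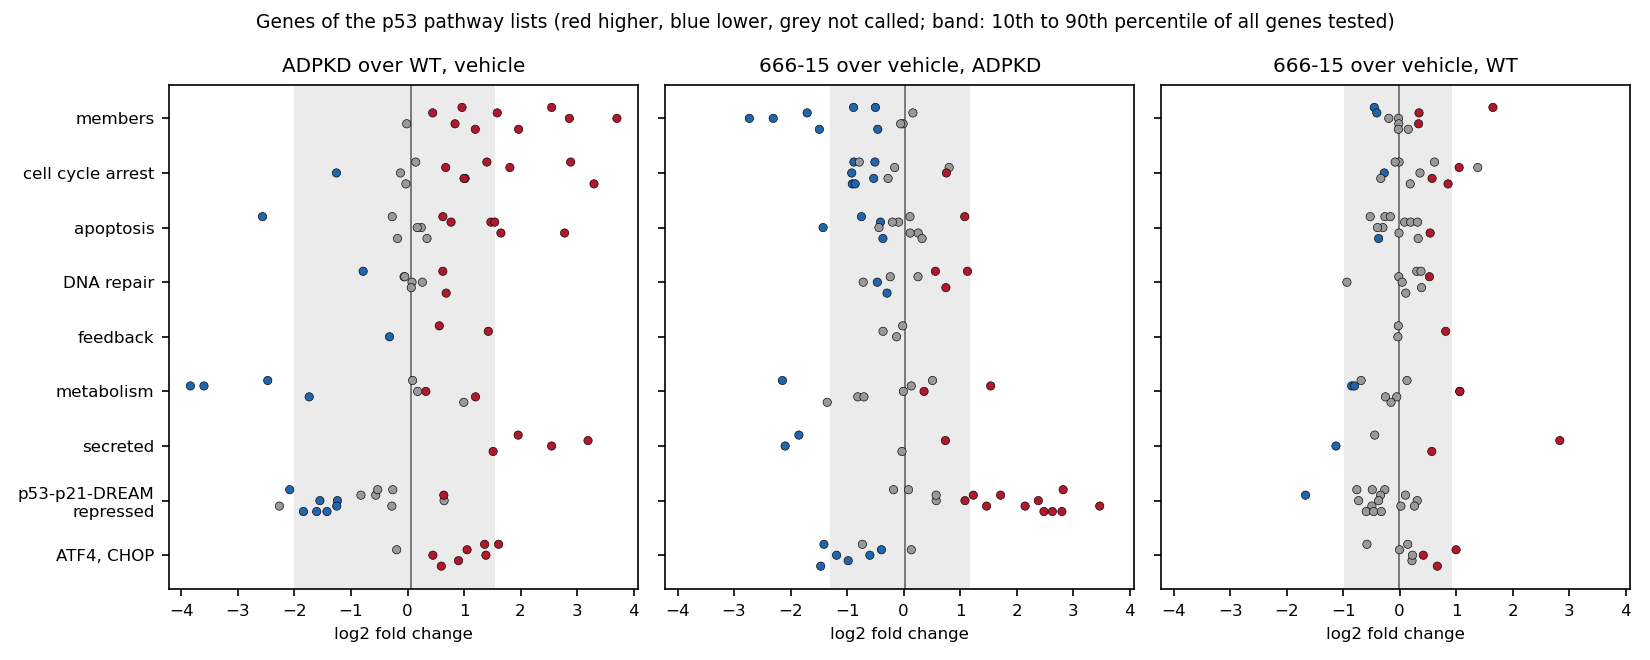
Log2 fold changes of every tested gene of the 10 genes and of the other p53 pathway lists in 3 comparisons, each point 1 gene, with the median (line) and the 10th to 90th percentile (band) of all genes tested. In ADPKD over WT cells with vehicle, 7 of 11 arrest genes and all 4 secreted genes are called higher and 4 of 9 metabolism genes lower; with 666-15 in ADPKD cells, 11 of 15 cell cycle genes lowered through p21 are called higher.

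Some cell cycle genes are known to be lowered by p53 through p21 and the DREAM repressor complex. Of 15 such genes, 7 were lower, 1 higher and 7 not called in ADPKD over WT cells with vehicle (median -1.24). There Cdkn1a was higher, and 27.6% of all genes tested were lower and 28.8% higher. With 666-15 in ADPKD cells 11 of the 15 were higher and none lower (median 1.72), where Cdkn1a was lower. Over all genes tested 22.3% were higher and 19.1% lower in that comparison. In the other 2 comparisons in which Cdkn1a was higher, some of these genes were higher as well and none was lower. In ADPKD over WT cells with 666-15, 9 of 15 were higher (median 1.18), beside 21.8% of all genes higher and 24.5% lower. In ADPKD cells given 666-15 over WT cells given vehicle, 6 of 15 were higher (median 0.83), beside 28.6% higher and 26.7% lower. With 666-15 in WT cells 1 of the 15 was lower and none higher, beside 11.6% of all genes lower and 13.9% higher. Ccnb1, the cyclin B1 gene, stood at 5.47 and 3.67 CPM in ADPKD cells given 666-15, 0.363 and 0.923 CPM in ADPKD cells given vehicle, 1.39 and 1.83 CPM in WT cells given 666-15 and 2.64 and 2.84 CPM in WT cells given vehicle. Its log2 fold change was -2.08 ± 0.47 in ADPKD over WT cells with vehicle and 2.82 ± 0.46 with 666-15 in ADPKD cells (edgeR adjusted p = 0.00203 and 4.25e-04). Top2a, the topoisomerase gene of dividing cells, stood at 24.0 and 23.7 CPM in ADPKD cells given 666-15, against 3.89 and 2.93 CPM in ADPKD cells given vehicle. The counts rest on low levels and on single libraries: the number lower in ADPKD over WT cells with vehicle was 4 without ADPKD vehicle replicate 1 and 3 without WT vehicle replicate 2, and the number higher with 666-15 was 7 without ADPKD 666-15 replicate 2. With the GC trend removed the 2 counts were 6 and 12, and with the 5 CPM filter, which left 7 of the 15 genes, they were 4 and 5.

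Of 24 genes that act on p53, 23 were tested, and 10 were higher and 6 lower in ADPKD over WT cells with vehicle (median 0.33), beside 28.8% of all genes higher and 27.6% lower. Ppp1r13l, the gene of the p53 inhibitor iASPP, was higher by 2.31 ± 0.13, and the genes of ribosomal proteins that bind MDM2 were higher too, Rpl5 by 1.32 ± 0.10, Rpl23 by 1.20 and Rpl11 by 0.68. With 666-15 in ADPKD cells 8 of the 23 were higher and 5 lower, beside 22.3% of all genes higher and 19.1% lower. The ATF4 and CHOP genes, which answer the unfolded protein and amino acid responses and which Gdf15, Bbc3 and Sesn2 are also known to follow, were higher in 7 of 8 cases in ADPKD over WT cells with vehicle (median 0.98) and lower in 6 of 8 with 666-15 in ADPKD cells (median -0.85), against the same shares of all genes. Trib3 stood at 40.2 and 44.9 CPM in ADPKD cells given 666-15, 95.2 and 98.4 CPM in ADPKD cells given vehicle, 42.6 and 44.0 CPM in WT cells given 666-15 and 35.96 and 38.1 CPM in WT cells given vehicle. The ADPKD vehicle libraries alone were high. Of the 8 ATF4 and CHOP genes, 3 were higher with 666-15 in WT cells and none lower (median 0.22). Over all genes tested 13.9% were higher and 11.6% lower there. The response was lower in ADPKD than in WT cells for 6 of the 8 and higher for none. By that test 13% of all genes passed as lower and 13.6% as higher.

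The pattern of Cdkn1a over the 8 libraries was most alike, by Pearson correlation of log2(CPM + 0.5) among 11198 genes with a mean of at least 5 CPM, in C2cd2 (0.998), Zfp746 (0.996), Rpl10 (0.994), Hr (0.994) and Gm9625 (0.994). These correlations describe 4 groups of 2 libraries that share their depth and scaling. Among the other 9 genes they ran from 0.974 for Bbc3, 0.973 for Phlda3 and 0.960 for Bax through 0.917 for Trp53inp1, 0.894 for Aen, 0.733 for Trp53 and 0.720 for Gdf15 to 0.417 for Mdm2 and -0.02 for Ccng1. C2cd2 stood at 38.3 ± 3.14 CPM in ADPKD cells given 666-15, 158 ± 16.2 CPM in ADPKD cells given vehicle, 20.97 ± 2.20 CPM in WT cells given 666-15 and 22.9 ± 1.79 CPM in WT cells given vehicle (SD, n = 2 each).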

How the data were processed

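RNA was counted in 8 libraries of DBA-positive mouse kidney cells. The submitters' processing notes list HISAT2 2.1.0, featureCounts 1.6.0, DESeq2 and the mm10 build, without the role of each. The authors deposited raw counts per gene. The annotation release, strand setting and treatment of shared reads are not given in the sources used here. Columns for vehicle libraries were matched to samples by elimination. Gene positions, lengths and GC content came from GENCODE M21 on GRCm38, which matched 96.9% of symbols.

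Counts were analysed with edgeR 4.0.16 in R 4.3.3: filterByExpr (minimum count 10, total 15), TMM scaling and 1 robust quasi-likelihood fit of the 4 groups, two-sided, with Benjamini-Hochberg adjustment over all 17440 genes tested and a threshold of 0.05. Residual degrees of freedom were 4 and prior ones 8.69 at the median, and biological variation (BCV) was 0.138. CPM use TMM-scaled totals, and TPM use the longest transcript. The fit was tested on simulated counts. Counting error is covered by the fit, and spread between mice only as far as the libraries are separate mice. The 10 genes and the pathway lists were chosen with earlier results of these data known. Members are given in full; from each list the up to 4 genes with the smallest p in ADPKD over WT cells with vehicle, and those passing the test of the difference of responses, could be named. Alternatives were RLE scaling, no filter, a filter of 5 CPM in 2 libraries, no robust option, GC or length trends removed by lowess (span 0.3), 2 groups alone, a replicate block, DESeq2 1.42.0 and each library left out. Replicate numbers did not pair libraries. One gene of the lists is counted but not reported by name here.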

Additional observations from a re-analysis of the deposited data

Results flagged for a closer look

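The response to 666-15 differed between ADPKD and WT cells for 6 of the 10 genes, by the test of that difference in edgeR, on the log2 scale as the ADPKD response minus the WT response. Over all genes tested 26.6% passed that test, 13% as lower and 13.6% as higher. Bbc3 had -2.71 ± 0.30 (adjusted p = 6.01e-05 in edgeR), Cdkn1a -1.47 ± 0.14 (adjusted p = 2.21e-05 in edgeR) and Bax -1.30 ± 0.18 (adjusted p = 2.59e-04 in edgeR). All 3 fell with 666-15 in ADPKD cells, and in WT cells Bax was lower at -0.40 while Bbc3 and Cdkn1a stood at -0.02 each. With the GC trend removed, the difference was -0.48 for Bax (adjusted p = 0.0486 in edgeR), -1.76 for Bbc3 and -1.17 for Cdkn1a. Gdf15 had -2.54 ± 0.22 (adjusted p = 2.65e-05 in edgeR), with a fall in ADPKD cells and a rise in WT cells. Phlda3 had -2.11 ± 0.56 (adjusted p = 0.0264 in edgeR) and Trp53inp1 -0.61 ± 0.18 (adjusted p = 0.0224 in edgeR). The call of Trp53inp1 was lost without ADPKD 666-15 replicate 1 or 2, ADPKD vehicle replicate 2 or WT vehicle replicate 1 (-0.62 to -0.49) and with DESeq2 (-0.55, adjusted p = 0.0591). That of Phlda3 was lost in 6 of 8 fits without 1 library (-2.22 to -1.12) and with the GC trend removed (-1.32).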

How the results depend on the processing

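All 9 calls in ADPKD over WT cells with vehicle held in each of 17 alternatives. With 666-15 in ADPKD cells 4 of 7 did (Cdkn1a, Bbc3, Bax and Phlda3), and in WT cells 1 of 5 (Gdf15). The number of the 10 genes called in WT cells was 3 with RLE scaling, the 5 CPM filter, the length trend removed or DESeq2, 1 in the 2 groups alone and 1 to 5 without 1 library. Without 1 library, the other p53 targets called numbered 13 to 23 for 666-15 in ADPKD cells and 9 to 15 in WT cells. All genes called numbered 4783 to 7817 and 2402 to 4707 in the same 2 comparisons and 3037 to 5075 for the difference of responses.

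Signs turned only for folds that were not called, and the cause was not tested. With the GC trend removed, Ccng1 was 0.058 in ADPKD over WT cells with vehicle and -0.32 in the difference of responses, Trp53 0.13 and Mdm2 -0.0038 for 666-15 in ADPKD cells, Bbc3 0.012 for 666-15 in WT cells, Bax 0.28 in ADPKD cells given 666-15 over WT cells given vehicle, and Aen 0.11 in the difference of responses. With the length trend removed, Bax was 0.15 in ADPKD cells given 666-15 over WT cells given vehicle and Ccng1 0.026 in ADPKD over WT cells with 666-15. Ccng1 was also 0.0041 (RLE), 0.0025 (5 CPM filter) and 0.0032 (DESeq2) in ADPKD over WT cells with 666-15 and 0.023 without a filter for 666-15 in ADPKD cells. Aen was 0.0019 (RLE) and 0.0094 (DESeq2) in the difference of responses. Without 1 library, the ranges that crossed 0 were as follows. In ADPKD over WT cells with vehicle, Ccng1 ran from -0.12 to 0.057. For 666-15 in ADPKD cells, Ccng1 ran from -0.084 to 0.095 and Trp53 from -0.11 to 0.029. For 666-15 in WT cells, Ccng1 ran from -0.10 to 0.060, Cdkn1a from -0.12 to 0.064, Bbc3 from -0.18 to 0.12 and Phlda3 from -1.17 to 0.39. In ADPKD over WT cells with 666-15, Bbc3 ran from -0.14 to 0.40, Ccng1 from -0.086 to 0.084 and Gdf15 from -0.11 to 0.13. In ADPKD cells given 666-15 over WT cells given vehicle, Bbc3 ran from -0.16 to 0.37 and Ccng1 from -0.10 to 0.047. In the difference of responses, Ccng1 ran from -0.064 to 0.11 and Aen from -0.14 to 0.093.

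With the replicate block, 9, 7 and 5 of the 10 genes were called in ADPKD over WT cells with vehicle, for 666-15 in ADPKD cells and for 666-15 in WT cells, the same numbers as without it, and it changed no other call of the 10 genes. The replicate differences correlated at -0.0371 to 0.0806 between groups over 11199 genes. With 2 libraries a group, leaving out 1 assumes that the lone library varies like the rest, and depth limits Phlda3 in WT cells (31 to 91 counts).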
